A study of Sus scrofa with 36 samples.

Results

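LRRC43, OVGP1, GHRL and GSTA1 are 4 of the 6360 genes that carry their own symbol on this porcine array, and they are described here across the 9 treatment groups. They were taken because, in these same animals, the difference between estrogen and no estrogen was smaller with progesterone than without it. Where a symbol had several probe sets of its own, the brightest on average across the 36 arrays stood for the gene. LRRC43, OVGP1 and GHRL have 1 such probe set each and GSTA1 has 2.

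The mammary glands of 36 peripubertal female Yucatan miniature swine, 5 months old, were profiled on 1 array each, 4 animals to a group. Ovaries were removed from 32 of them, which were then given bromocriptine for 8 days; this dopamine agonist lowers prolactin. In the last 5 days the animals of HEP, HE, HP and H received haloperidol, a dopamine antagonist that raises prolactin, and those of BEP, BE, BP and B stayed on bromocriptine. E in a group's name means that estrogen was added, and P that progesterone was added. The other 4, called sham, had surgery that left the ovaries in place and were given saline throughout the 13 days, so any group differs from sham in both the surgery and the drugs. No group without ovaries went without bromocriptine.

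Estrogen acts in the mammary gland mainly through the estrogen receptor of luminal cells, and the progesterone receptor gene PGR is one of its classical targets. Progesterone acts through that receptor, and in the uterus and oviduct it opposes many estrogen responses. OVGP1, or oviductin, is a glycoprotein secreted by the oviduct, where estrogen is known to maintain it in several mammals. GHRL encodes the precursor of ghrelin, a peptide hormone of the stomach that releases growth hormone and stimulates appetite. GSTA1 is an alpha-class glutathione transferase, an enzyme that conjugates glutathione to reactive compounds. LRRC43 encodes a protein named for its leucine-rich repeats.

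Values are the deposited RMA probe set values, read as log2, and differences are log2 differences ± SE from limma with 4 animals in each group. The lower quartile of an array lay between 5.90 and 6.09, and values below it are dim. Array signals do not give levels that can be set against each other between genes, so levels are compared only within a probe set. In RNA from whole tissue, fewer cells of a type and less RNA per cell cannot be told apart. The 4 genes were chosen on the combined action of estrogen and progesterone, so their values for estrogen and for progesterone are given as a description, with no test.

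In both drug arms each of the 4 genes was high with estrogen alone and lower when progesterone was added to estrogen. The mean with both steroids lay between -0.82 and 0.41 from the mean without steroids for LRRC43, GHRL and GSTA1. For OVGP1 it lay 0.38 above on haloperidol (HEP minus H) and 1.47 above on bromocriptine (BEP minus B). Every HE animal lay above every H animal for 4 of the 4 genes, as for 12.4% of all probe sets. Every BE animal lay above every B animal for 4 of the 4 genes, as for 6.09% of all probe sets. Every HEP animal lay below every HE animal for 4 of the 4 genes (2.29% of all probe sets), and every BEP animal below every BE animal for 4 of the 4 genes (1.20% of all probe sets). With progesterone present, estrogen left the groups overlapping: the HEP and HP animals were apart for 0 of the 4 genes, against 22.4% of all probe sets in either direction, and BEP and BP animals for 0 of the 4 genes, against 5.42%. These contrasts hold the values that chose the genes, so nothing is read from the counts.

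**Figure D1:**
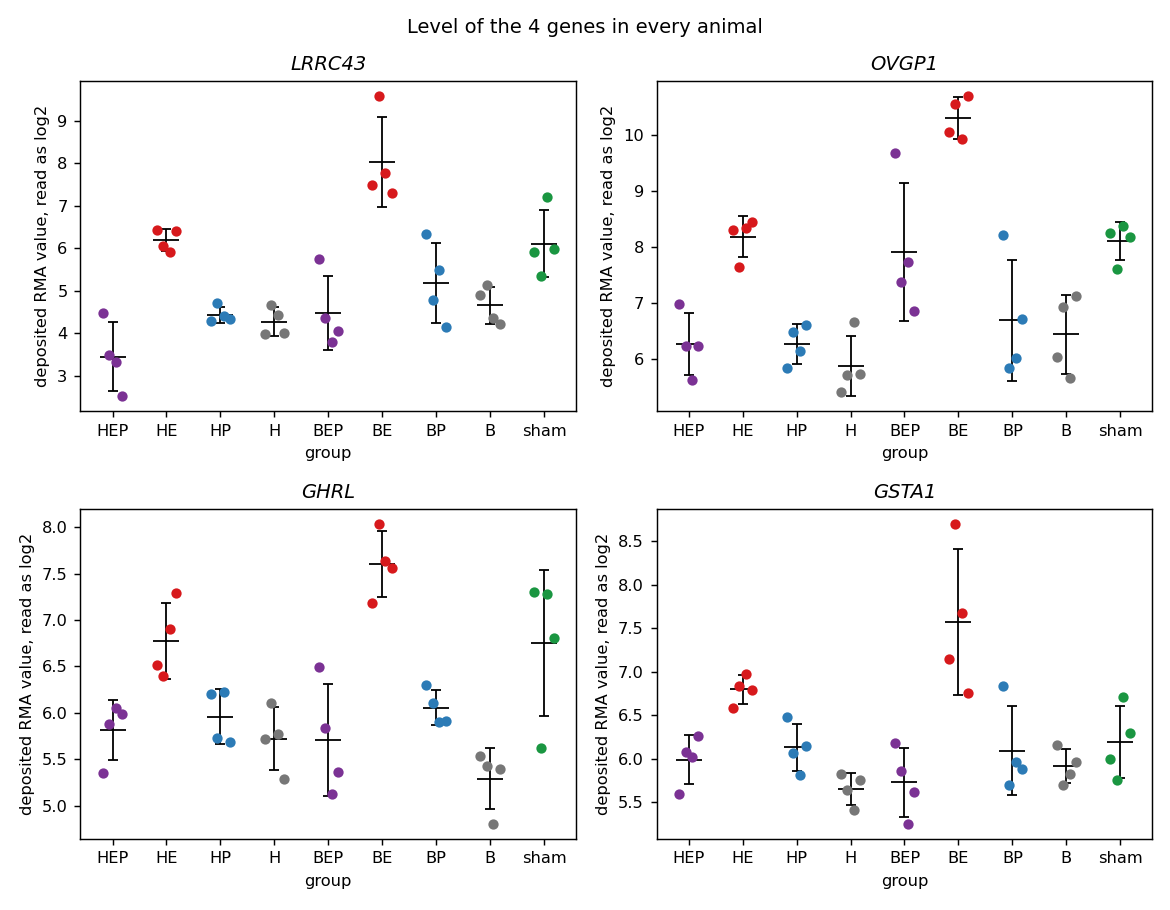
Deposited RMA values, read as log2, of LRRC43, OVGP1, GHRL and GSTA1 in the 36 animals. Points are animals and black bars the group mean ± SD (n = 4), and the 4 BE animals hold the highest mean of the 9 groups for each gene.

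LRRC43 was at 6.43, 6.06, 5.91 and 6.42 in the HE animals and at 3.98, 4.67, 4.43 and 4.02 in the H animals. It was at 7.49, 9.58, 7.77 and 7.29 in the BE animals and at 4.91, 5.15, 4.36 and 4.23 in the B animals. Thus the estrogen groups lay wholly above, 3.82-fold on haloperidol (1.93 ± 0.47) and 10.4-fold on bromocriptine (3.37 ± 0.47). With progesterone as well, LRRC43 was at 4.49, 3.49, 3.33 and 2.53 in the HEP animals, and at 5.75, 4.35, 3.80 and 4.05 in the BEP animals. It was at 4.29, 4.71, 4.42 and 4.35 in the HP animals and at 6.34, 4.79, 5.49 and 4.14 in the BP animals. In the presence of progesterone the mean estrogen difference was below 0 on either drug, -0.98 ± 0.47 for HEP minus HP and -0.70 ± 0.47 for BEP minus BP. The animals of HEP and HP overlapped, as did those of BEP and BP. Set against estrogen alone, progesterone went with a level 6.73-fold lower in HEP than in HE and 11.7-fold lower in BEP than in BE. All 4 animals of HEP, HP, H, BEP and B, and 3 of BP, lay below the lower quartile of their array. Differences among those groups may thus be compressed.

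OVGP1 was at 8.30, 7.63, 8.34 and 8.44 in the HE animals and at 5.41, 5.72, 6.65 and 5.73 in the H animals. On bromocriptine it was at 10.05, 10.54, 9.92 and 10.69 in the BE animals and at 6.03, 6.93, 5.67 and 7.12 in the B animals. The estrogen difference without progesterone was 2.30 ± 0.46 on haloperidol (4.92-fold) and 3.86 ± 0.46 on bromocriptine (14.5-fold), and the estrogen groups lay wholly above on both drugs. With both steroids it was at 6.98, 6.23, 5.62 and 6.23 in the HEP animals, and at 9.67, 7.37, 7.74 and 6.86 in the BEP animals. With progesterone alone it was at 5.83, 6.48, 6.14 and 6.61 in the HP animals, and at 8.21, 5.84, 6.01 and 6.71 in the BP animals. The estrogen difference that remained with progesterone was -0.00 ± 0.46 for HEP minus HP and 1.21 ± 0.46 for BEP minus BP. OVGP1 was the gene of the 4 with a mean above its progesterone-only level in BEP. Animal A of BEP was at 9.67 and the next BEP animal at 7.74. In the BP group set against it, animal A was also highest, at 8.21, and the next animal was at 6.71.

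GHRL was at 6.51, 6.40, 6.90 and 7.29 in the HE animals and at 5.72, 6.11, 5.77 and 5.29 in the H animals. It was at 7.18, 8.04, 7.64 and 7.56 in the BE animals and at 5.53, 5.43, 4.81 and 5.40 in the B animals. Estrogen alone went with a 2.08-fold higher level on haloperidol (1.05 ± 0.30) and a 4.96-fold higher level on bromocriptine (2.31 ± 0.30). Added progesterone left the estrogen groups at 5.35, 5.88, 6.05 and 5.99 in HEP, and at 6.49, 5.84, 5.13 and 5.36 in BEP. The HP animals were at 6.20, 5.73, 6.22 and 5.69, and the BP animals at 6.30, 6.11, 5.91 and 5.91. The estrogen difference with progesterone was -0.14 ± 0.30 for HEP minus HP and -0.35 ± 0.30 for BEP minus BP. GHRL lay below the lower quartile of the array in 4 animals of B, 3 each of H and BEP, and 2 each of HEP, HP and BP. Differences among those groups may be compressed. GHRL was also the gene for which progesterone alone gave groups that did not overlap: every BP animal lay above every B animal, with a difference of 0.76 ± 0.30, which holds for 1 of the 4 genes and for 1.16% of all probe sets. On haloperidol the same pair overlapped, with 0.24 ± 0.30 for HP minus H (0 of the 4 genes apart, 1.24% of all probe sets).

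GSTA1, by its representative probe set, was at 6.58, 6.84, 6.97 and 6.79 in the HE animals and at 5.83, 5.64, 5.41 and 5.76 in the H animals. On bromocriptine it was at 7.14, 8.70, 7.67 and 6.76 in the BE animals and at 6.16, 5.70, 5.83 and 5.97 in the B animals. The estrogen difference was 1.14 ± 0.29 on haloperidol (2.20-fold) and 1.65 ± 0.29 on bromocriptine (3.15-fold). With both steroids it was at 5.59, 6.08, 6.02 and 6.26 in the HEP animals, and at 6.18, 5.86, 5.25 and 5.61 in the BEP animals. With progesterone alone it was at 6.48, 6.07, 5.82 and 6.15 in the HP animals, and at 6.84, 5.70, 5.96 and 5.88 in the BP animals. Here too the estrogen difference with progesterone was small, -0.14 ± 0.29 for HEP minus HP and -0.37 ± 0.29 for BEP minus BP. GSTA1 lay below the lower quartile of the array in 4 animals of H, 3 of BEP and 2 each of BP and B. Differences among those groups may be compressed.

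**Figure D2:**
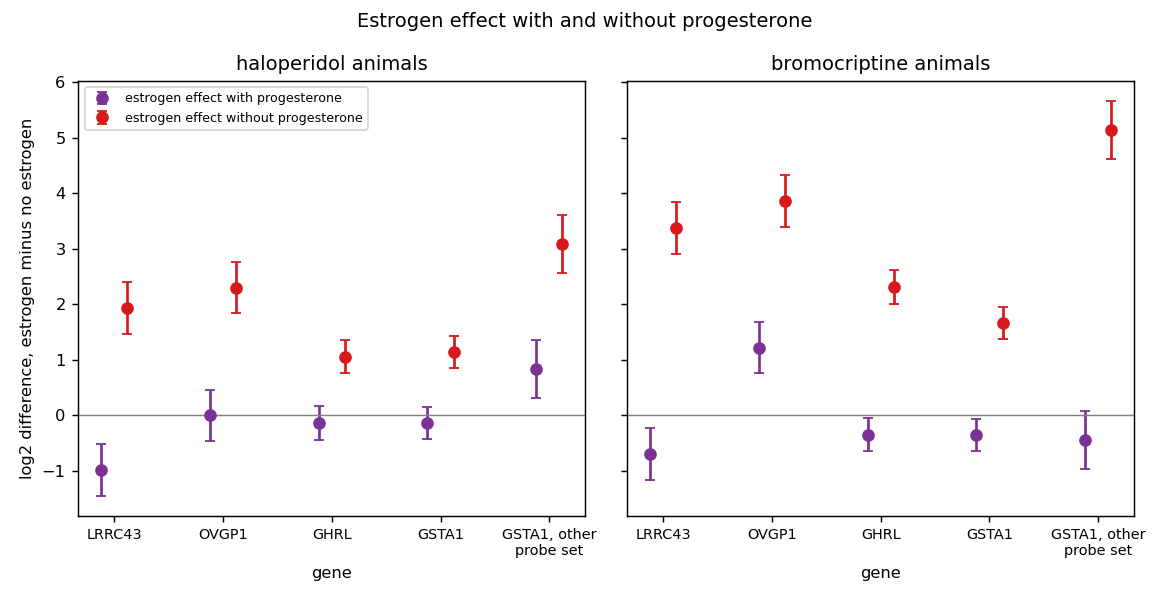
Log2 difference between animals with and without estrogen, with progesterone (purple) and without it (red), on haloperidol (left panel) and bromocriptine (right panel), with bars of 1 SE. Without progesterone the 4 genes lay between 1.05 and 3.86 above their group without estrogen, and with it between -0.98 and 1.21.

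The second GSTA1 probe set gave a larger contrast than the one that represents the gene. It was at 5.25, 4.26, 6.05 and 5.21 in the HE animals and at 2.59, 2.12, 2.01 and 1.71 in the H animals. It was at 6.76, 8.42, 7.14 and 7.30 in the BE animals and at 1.97, 3.13, 2.10 and 1.84 in the B animals, a difference of 5.14 ± 0.52 (35.4-fold). In BEP it was back at 2.76, 2.50, 2.64 and 2.38, which is 28.5-fold below BE, and in HEP at 3.33, 2.15, 3.59 and 2.33, which is 5.09-fold below HE. Outside BE and HE it lay below the lower quartile of the array in every animal, as it did in 3 of the 4 HE animals. Its folds thus rest on a dim baseline, and those of HE compare mostly dim values with each other. The representative probe set lists 2 transcript accessions, of which 1 is in the RefSeq table used here. Its name ends in _s_at, which Affymetrix uses for probes shared between transcripts. The second lists 1 accession, which is in that table. Near-identical alpha-class copies could thus add signal to the representative probe set, and this was not tested. Across the 9 group means the 2 probe sets had a Pearson r of 0.96, as a description of the same animals.

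**Figure D3:**
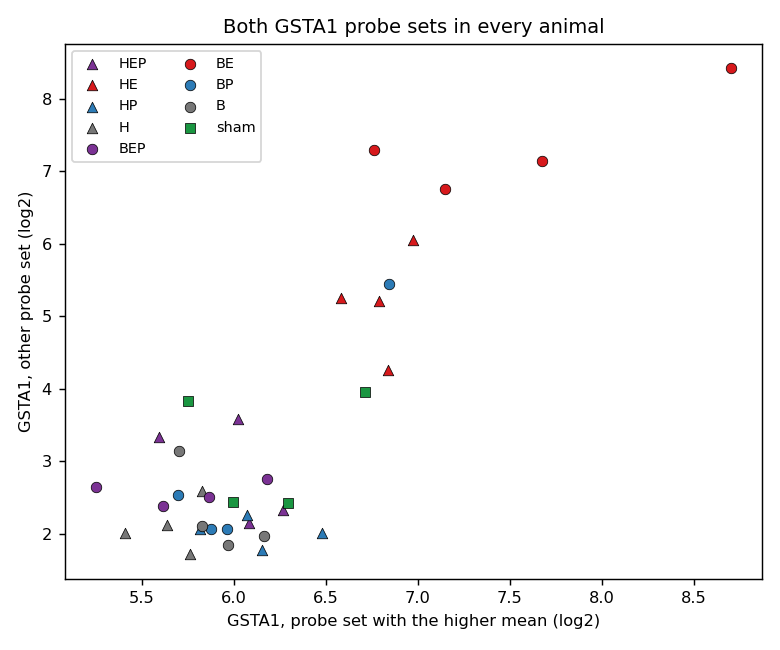
Values of both GSTA1 probe sets in the 36 animals (log2), with the representative probe set on the horizontal axis and the other on the vertical axis. On the vertical axis the HE and BE animals lie at 4.26 or above, as does 1 BP animal at 5.44, and the others lie at 3.95 or below.

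Put as 1 number, the estrogen difference was lower with progesterone by -3.50 ± 0.47 for LRRC43, -2.47 ± 0.46 for OVGP1, -1.93 ± 0.30 for GHRL and -1.65 ± 0.29 for GSTA1, averaged over both drugs. For the second GSTA1 probe set the value was -3.93 ± 0.52. Among 20792 probe sets this contrast called 18 as lower, or 0.0866%, and 5 of the 18 belong to the 4 genes. That count was fixed by the choice of the genes on this contrast, so nothing is read from it. The other probe sets with a symbol were HAPLN1, a link protein of the hyaluronan matrix, with 2, and GPX2, a glutathione peroxidase of epithelia, with 1. Another 10 carry no symbol here. Nearest to the threshold on its inner side was the second HAPLN1 probe set (-2.81 ± 0.64), and on its outer side an unnamed one (-1.45 ± 0.34). GPX2 had another pattern: it averaged 5.25 ± 0.45 in HEP and 8.90 ± 0.84 in HE, but 4.76 ± 0.59 in BEP and 5.32 ± 0.47 in BE (SD, n = 4).

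The sham animals, which kept their ovaries, were at 5.91, 5.35, 7.21 and 5.98 for LRRC43, and at 8.24, 7.61, 8.38 and 8.17 for OVGP1. They were at 7.30, 5.62, 7.27 and 6.81 for GHRL and at 5.99, 5.75, 6.71 and 6.30 for GSTA1. By its mean, sham lay below BE and HE and above H and B for each gene. Every BE animal lay above every sham animal for 3 of the 4 genes, GHRL being the exception, as for 4.38% of all probe sets. The HE animals overlapped sham for each of the 4 genes (0 of 4 wholly above, 5.03% of all probe sets). At the low end, every B animal lay below every sham animal for LRRC43, OVGP1 and GHRL, 3 of the 4 genes (5.20% of all probe sets), and every H animal for LRRC43 and OVGP1, 2 of the 4 (7.22%).

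In the order of group means BE came first and HE second for each of the 4 genes. For LRRC43 and OVGP1 their ranges were apart, with a gap of 1.83 and 2.12, and for GHRL and GSTA1 they overlapped, with a gap of 0.83 and 0.77. Below HE, sham came next for each gene, by a gap smaller than the pooled SD for LRRC43, OVGP1 and GHRL, and of 0.61 for GSTA1. Further down, no neighbours in the order had separate ranges. The lowest mean was that of HEP for LRRC43 (3.46 ± 0.80), of H for OVGP1 (5.88 ± 0.54) and GSTA1 (5.66 ± 0.18), and of B for GHRL (5.29 ± 0.33).

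The effect of haloperidol was tested by limma with Benjamini-Hochberg adjustment over all probe sets. Because the groups are balanced, its estimate is independent of that of the estrogen by progesterone contrast. The genes were chosen with earlier results of these data known, and GPX2, called in that contrast, is not among them. Whether the drug pattern had a part in the choice cannot be told, here or in the drug comparisons below. The estimate of spread is shared with the choice, which may make these p-values somewhat small. OVGP1 fell 2.28-fold with haloperidol, averaged over the 4 steroid backgrounds (-1.19 ± 0.23, adjusted p = 0.00155), and LRRC43 fell too (-0.999 ± 0.236, adjusted p = 0.0079). By their means both were lower in 4 of 4 backgrounds. In HE minus BE, HEP minus BEP, HP minus BP and H minus B, OVGP1 differed by -2.12, -1.65, -0.43 and -0.56. LRRC43 differed by -1.83, -1.03, -0.75 and -0.39. LRRC43 was dim in every animal of HEP, HP, H, BEP and B, and in 3 of BP. OVGP1 was dim in 3 animals of H and 1 each of HEP, HP, BP and B. The averages of GHRL (-0.10 ± 0.15, adjusted p = 0.763) and GSTA1 (-0.18 ± 0.14, adjusted p = 0.486) did not pass, with 95% intervals from -0.40 to 0.21 and from -0.48 to 0.11. So 2 of the 4 genes were called lower, where 3.13% of all probe sets were called lower. Whether the genes differ from each other in this effect was not tested.

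The haloperidol difference was then taken within each background, a comparison added after the values were seen. For OVGP1, HE lay 4.35-fold below BE (-2.12 ± 0.46, adjusted p = 0.00332), and for LRRC43 3.55-fold (-1.83 ± 0.47, adjusted p = 0.0118). Every HE animal was below every BE animal for these 2 of the 4 genes (8.37% of all probe sets), and limma called 2 of the 4 lower (5.05% of all probe sets). The values for GHRL (-0.83 ± 0.30, adjusted p = 0.0744) and GSTA1 (-0.77 ± 0.29, adjusted p = 0.081) missed the threshold, while the second GSTA1 probe set passed it (-2.21 ± 0.52, adjusted p = 0.0062). Without animal B of BE, the highest of its group for 3 of the 4 genes, the LRRC43 value was -1.31 and lost its call (adjusted p = 0.0816). The GSTA1 value passed without animal D of BE (-1.04, adjusted p = 0.0261). The GHRL value passed without animal B of sham (adjusted p = 0.0367). That animal is in neither HE nor BE, so the difference stayed and only the shared spread and the adjustment changed. With both steroids, HEP minus BEP was -1.65 ± 0.46 for OVGP1 (adjusted p = 0.0732) and -1.03 ± 0.47 for LRRC43 (adjusted p = 0.31). That OVGP1 value passed without animal D of BEP (adjusted p = 0.0452). It also passed without animal A of BP (adjusted p = 0.0226), which is in neither group, so again the difference itself stayed. With both steroids 0 of the 4 genes were called by limma, 2 having an unadjusted p under 0.05, and 1.08% of all probe sets were. For HP minus BP and for H minus B, 0 of the 4 genes were called and 0 had an unadjusted p under 0.05, with 0% and 0.0337% of all probe sets called.

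**Figure D4:**
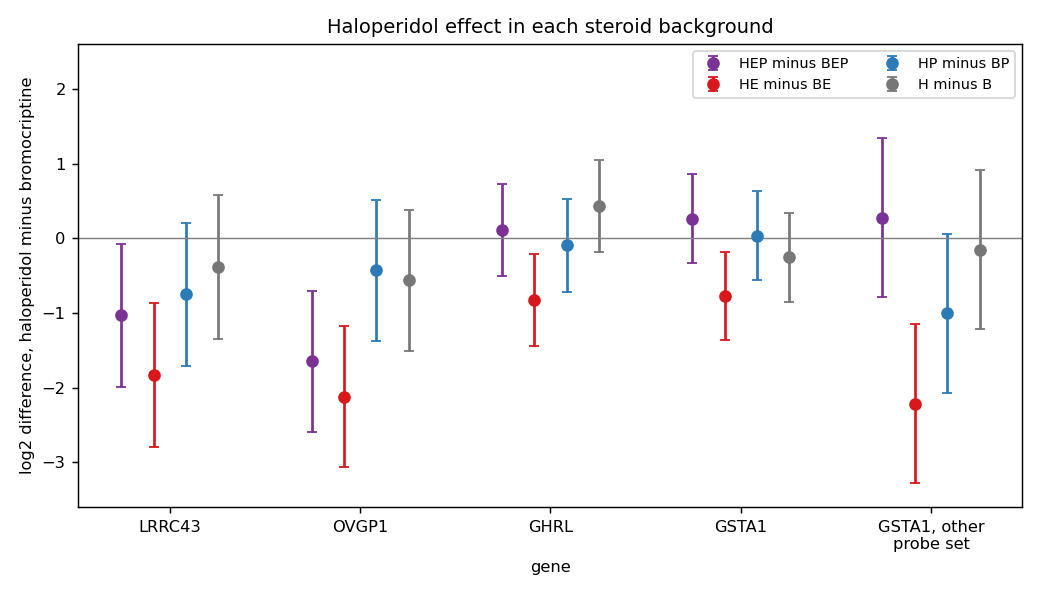
Log2 difference between haloperidol and bromocriptine animals for each gene in 4 steroid backgrounds, with 95% confidence intervals from limma. The HE minus BE values of OVGP1 and LRRC43, -2.12 and -1.83, are the ones of the 4 genes that passed after adjustment.

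Whether estrogen acted differently on the 2 drugs was asked by the interaction of estrogen with haloperidol. It was below 0 for 4 of the 4 genes, from -1.39 ± 0.46 for OVGP1 (adjusted p = 0.0605) to -0.14 ± 0.29 for GSTA1 (adjusted p = 0.802), and limma called 0 of them, 1 having an unadjusted p under 0.05, where it called 7.48% of all probe sets. The OVGP1 value passed without animal A of BP (-1.64, adjusted p = 0.0208). The interaction of progesterone with haloperidol lay between 0.21 and 0.66, with 0 of the 4 genes called, 1 at an unadjusted p under 0.05, and 0% of all probe sets called. The interaction of all 3 treatments asks whether the opposition of progesterone to estrogen differed between the drugs. It was above 0, meaning a smaller opposition on haloperidol, for 4 of the 4 genes: 1.16 ± 0.94 for LRRC43, 0.34 ± 0.93 for OVGP1, 1.46 ± 0.61 for GHRL and 0.74 ± 0.58 for GSTA1. No gene passed (adjusted p = 0.999 for each, 1 of the 4 at an unadjusted p under 0.05, 0% of all probe sets called). The second GSTA1 probe set gave 3.34 ± 1.04 (adjusted p = 0.917). The 95% intervals are wide, from -0.76 to 3.08 for LRRC43 and from 0.23 to 2.70 for GHRL without adjustment. The OVGP1 value was below 0 without animal A of BP (-0.17) or animal D of BEP (-0.01).

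In 3 animals the 4 genes stood alike. Animal A of BP and animal A of BEP were the highest of their group for each of the 4 genes, and animal B of sham was the lowest of its group for each. Animal A of BP stands apart from its group in other genes too. Its skeletal muscle marker score was 4.34 (7 of 12 markers measured), where the other BP animals ranged from -1.12 to 1.11. Muscle scores were higher still in animal A of B (6.80) and animal C of H (5.31), so such scores were not particular to BP. Animal A of B enters each BE minus B value. The cell cycle score of animal A of BP was 1.50, where the other BP animals ranged from -1.33 to -1.10. The part of either score in its values was not tested. Without that animal the estrogen by progesterone value was -3.30 for LRRC43, -2.22 for OVGP1, -1.89 for GHRL and -1.52 for GSTA1. After subtraction of group means, the 6 pairs among the 4 genes had Pearson r from 0.26 to 0.59 over the 36 arrays. Without animals A of BP and BEP these were -0.13 to 0.48 over 34 arrays. Genes measured on the same array share its RNA and its normalization.

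The genes whose values followed each of the 4 genes most closely over the 36 arrays included the 4 genes themselves, HAPLN1, PGR and PAQR8. For LRRC43 the closest were OVGP1 (Pearson r = 0.84), GHRL (0.82) and GSTA1 (0.81). For OVGP1 they were HAPLN1 (0.85), LRRC43 (0.84) and PGR (0.83). For GHRL they were LRRC43 (0.82), GSTA1 (0.81) and PAQR8, a membrane progestin receptor (0.79). For GSTA1 they were LRRC43 (0.81), GHRL (0.81) and OVGP1 (0.70). The mean of the 4 genes, each centred and scaled, was followed by HAPLN1 (0.82), PGR (0.78), PAQR8 (0.77), CST6, a cystatin that inhibits cysteine proteases (0.77), and CPT1C, a brain form of carnitine palmitoyltransferase (0.71). The 4 genes were chosen for a pattern shared over these groups, so their r with each other was favoured by the choice. HAPLN1 was called in the same contrast. The order of likeness changed with the measure. By r over the group means, OVGP1, GHRL and GSTA1 ranked 5, 4 and 7 for LRRC43. By the same measure CPT1C ranked 84 for the mean of the 4 genes. The arrays, their RNA and their normalization are also shared by all genes compared, so these values describe likeness and carry no test.

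**Figure D5:**
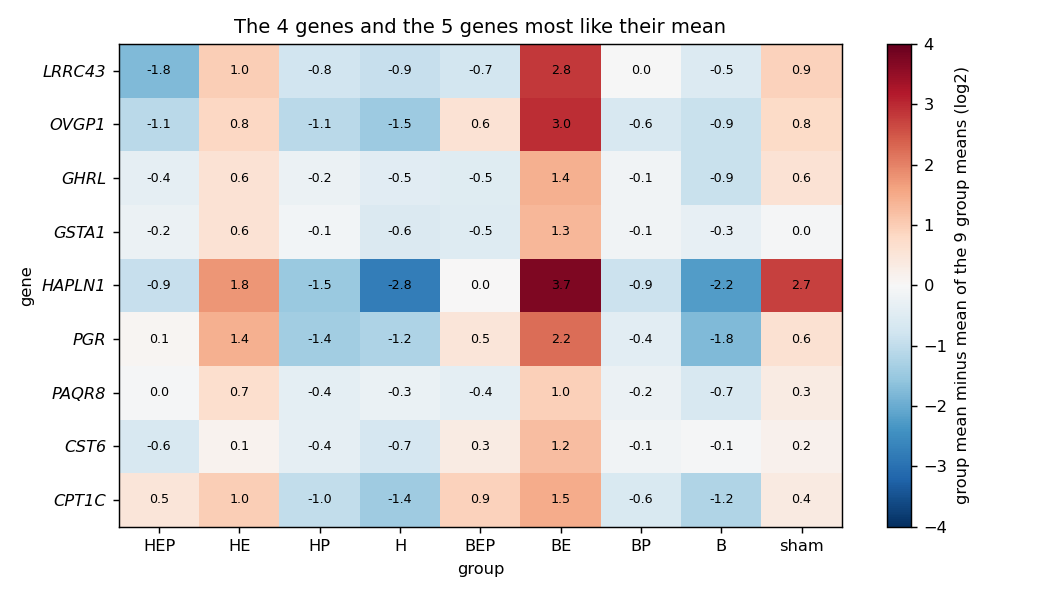
Group means of the 4 genes and of the 5 genes most like their mean, each minus the mean of its 9 group means (log2), with blue below 0 and red above. HAPLN1 and PGR share the high values in HE and BE, and BE has the highest mean of the 9 groups in each row. Before centring, HAPLN1 averaged 8.86 in sham and 7.89 in HE. CPT1C stayed high with both steroids, at 8.20 in HEP and 8.63 in BEP, against 6.27 in H and 6.50 in B.

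PGR, the receptor for progesterone itself, averaged 7.08 ± 0.34 in HEP, 8.41 ± 0.24 in HE, 5.61 ± 0.21 in HP and 5.76 ± 0.54 in H (SD, n = 4). On bromocriptine it averaged 7.50 ± 0.78 in BEP, 9.23 ± 0.65 in BE, 6.57 ± 1.66 in BP and 5.24 ± 0.98 in B. By its means, PGR lay lower in HEP than in HE and lower in BEP than in BE, and its groups with both steroids lay above those without steroids. Its estrogen difference was lower with progesterone by -2.13 ± 0.53, which did not pass (adjusted p = 0.0867). PAQR8 (-1.19 ± 0.30, adjusted p = 0.0923) did not pass either. ESR1, the estrogen receptor gene, was dim, with a mean of 4.25 over all arrays. AREG, an EGF receptor ligand that estrogen raised on average (3.19 ± 0.27, adjusted p = 2.59e-09), averaged 10.5 ± 0.27 in HEP, 9.16 ± 0.57 in HE, 10.4 ± 0.36 in BEP and 10.8 ± 0.47 in BE. Without estrogen AREG averaged 6.67 ± 1.51 in HP, 6.87 ± 0.22 in H, 7.64 ± 1.30 in BP and 6.96 ± 0.99 in B. Its interaction of estrogen with progesterone, averaged over both drugs, was 0.21 ± 0.54 (adjusted p = 0.933). By its means, AREG lay higher in HEP than in HE but lower in BEP than in BE. Its interaction of all 3 treatments was 2.73 ± 1.09, which did not pass (adjusted p = 0.999).

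Lists of genes related by function were set beside the 4 genes, leaving those 4 out, and the interaction of estrogen with progesterone was called for 0.250% of all probe sets in either direction, with a median of 0.02. Of 17 measured estrogen-regulated genes 0 passed in this interaction (median 0.10, PGR lowest at -2.13), although the average effect of estrogen raised 5, PGR, AREG, MYC, OXTR and LTF, and lowered 2, CTSD and CXCL12 (17.5% of all probe sets called higher and 17.6% lower). Of 15 measured progesterone-regulated genes 2 were called higher in the interaction: DEFB1, a beta-defensin (2.90 ± 0.50, adjusted p = 0.0031), and CDA, or cytidine deaminase (2.17 ± 0.35, adjusted p = 0.00112), where 0.164% of all probe sets were called higher. Of these 15, 0 were called lower. The gene lists, here and below, were chosen with earlier results of these data known, so their counts are a description. Of 16 measured steroid receptors and cofactors 0 passed in the interaction (median -0.32). With haloperidol 3 of these 16 fell, PAQR7, a membrane progestin receptor (-0.86 ± 0.15), FOXA1, a pioneer factor for the estrogen receptor (-0.61 ± 0.19), and ESR1 (-0.53 ± 0.17, adjusted p = 0.0492), where 3.13% of all probe sets were called lower. STAT5A (0.95 ± 0.15) and STAT5B (1.06 ± 0.17), transducers of prolactin, rose (3.85% of all probe sets called higher). These are averages over the steroid backgrounds, and for 3 of the 5 genes the difference depended on estrogen. The interaction of estrogen with haloperidol was called for PAQR7 (-1.68 ± 0.30), STAT5A (1.06 ± 0.30) and STAT5B (1.45 ± 0.34), and for 7.48% of all probe sets. For FOXA1 (adjusted p = 0.179) and ESR1 (adjusted p = 0.418) it did not pass. PAQR7 averaged 7.48 in both H and B.

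Relatives of the 4 genes were measured too. Of 7 other glutathione transferases 0 passed in the interaction (median -0.03). GSTA4, another alpha-class enzyme, rose with estrogen (0.74 ± 0.11, adjusted p = 6.58e-06), with an interaction of -0.01 ± 0.22 (adjusted p = 0.99). Of 6 genes of the ghrelin system 0 passed (median -0.18), among them GHSR, the ghrelin receptor (-0.37 ± 0.34, adjusted p = 0.761), and PCSK1, a convertase that processes the ghrelin precursor (-0.53 ± 0.65, adjusted p = 0.839), both dim. Of 3 chitinase-like relatives of OVGP1 0 passed, with CHI3L1 at -0.93 ± 0.36 (adjusted p = 0.344). In the RefSeq table of the Sscrofa11.1 assembly the 4 genes lie on 4 different chromosomes. Of the 24 protein-coding neighbours up to 3 places away, 8 were measured and 0 passed in the interaction, with values from -0.24 to 0.21.

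Markers of cell types were compared for the same contrast. Of 15 luminal epithelial markers (18 listed) 0 passed in the interaction, with a median of -0.05, and the group means of their score ranged from -0.18 in BE to 0.22 in HE. Within B, the animals' luminal scores ranged from -1.24 to 0.67, wider than those group means. Of 7 ciliated cell markers (35 listed) 0 passed, with a median of -0.08, and of 3 other markers of oviduct secretory epithelium 0 passed. FOXJ1 and PAX8, the defining genes of those cells, are not among the measured symbols here. Of 5 myoepithelial markers (11 listed) 0 passed, with a median of -0.18. Of 8 adipocyte, 8 endothelial, 8 leukocyte, 7 muscle and 15 cell cycle markers 0 passed in the interaction, with medians of 0.15, -0.11, 0.14, 0.25 and -0.53. With estrogen, averaged over the 4 backgrounds, 6 of 7 muscle, 5 of 8 adipocyte, 5 of 8 endothelial and 3 of 8 leukocyte markers fell, where 17.6% of all probe sets did. In the same contrast 15 of 15 cell cycle and 2 of 5 myoepithelial markers rose, where 17.5% of all probe sets did. The part of these markers in the values of the 4 genes was not tested.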

How the data were processed

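The authors used RMA to make the deposited values, here read as log2, per the submitters' processing notes. The scale was read as log2 because values ran from 1.552 to 13.74 with nearly equal quartiles in every array. Neither the logarithm's base nor the RMA version is stated in the labels. Probe sets were named through the platform annotation (9149 with 1 symbol, 178 with several, 11465 with none here). The 4 genes and the gene lists were chosen with earlier results of these data known.

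All 36 arrays entered a limma 3.58.1 fit in R 4.3.3 with 1 mean for each of 9 groups (27 residual degrees of freedom) and eBayes, two-sided, with Benjamini-Hochberg adjustment over 20792 probe sets within each contrast. An adjusted p under 0.05 was called. An interaction is 1 treatment's effect with another minus its effect without it, as an average across the remaining treatment. The genes named are the 4 genes, PGR and ESR1, the 3 genes with the highest Pearson r with each and 5 with their mean, genes called lower in the interaction of estrogen with progesterone, and up to 4 called members of each list; GHSR, PCSK1, GSTA4, CHI3L1, PAQR8 and the AREG levels were named after their values were seen. Marker scores average a list's genes, each first set to mean 0 across arrays. The fit was tested on simulated data. The labels do not say that arrays of a group came from separate litters or days, so p-values measure the spread between these animals. Titles share letters A to D across groups: same-letter arrays of different groups had a mean correlation of deviations of 0.04 (range -0.41 to 0.46), so the letters were not treated as pairs. Alternatives were filters, scaling, variance models, array weights, the letter as a block, fewer probe sets or arrays, and each array left out in turn. No sequence was printed, and genome coordinates were used only to place genes in order along their chromosomes. Figures used matplotlib 3.10.9.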

Additional observations from a re-analysis of the deposited data

Results flagged for a closer look

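In 45 sets of 4 animals (5 probe sets by 9 groups), 1 animal lay far from the rest of its group, and about 1 set in 20 would by chance. The second GSTA1 probe set was at 5.44 in animal A of BP, against 2.06 to 2.53 in the other BP animals, a gap of 0.862 of the group's range, past Dixon's critical value. The same animal was the highest of BP for each of the 4 genes.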

How the results depend on the processing

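The fall of LRRC43 and OVGP1 with haloperidol kept its direction and its call under each alternative that gave a value; LRRC43 lay too low to have one without dim probe sets. Counts of probe sets called moved by over 1.5 times as follows. Without dim probe sets the interaction of estrogen with progesterone called 26 and progesterone 10. Array weights called 2776 for haloperidol, 2399 for estrogen by haloperidol, 4 for the interaction of all 3, 162 for estrogen by progesterone and 44 for progesterone. With 1 probe set per gene these were 628, 706, 1, 14 and 8, and estrogen called 2568, with fewer probe sets tested. The interaction of all 3 called 3 with a variance trend and 1 with the 32 ovariectomized arrays. With the letter as a fixed replicate block it called 2, and neither block changed a call of the 4 genes. Leaving out 1 animal, the counts ran from 1066 to 2431 for haloperidol, 980 to 2545 for estrogen by haloperidol, 0 to 4 for all 3, 27 to 84 for estrogen by progesterone and 18 to 31 for progesterone. The OVGP1 interaction of estrogen with haloperidol passed with array weights (-1.41, adjusted p = 0.0187) and with 1 probe set per gene (-1.39, adjusted p = 0.0494), and ran from -1.64 to -1.10 leaving out 1 animal. Array weights also passed OVGP1 for HEP minus BEP (-1.33) and GHRL for HE minus BE (-0.84), and GHRL passed with 32 arrays (-0.83). The second GSTA1 probe set gave -3.93 for estrogen by progesterone, 2.15 for estrogen, -1.62 for progesterone, -2.21 for HE minus BE and -1.003 for HP minus BP, the last with the sign turned. Leaving out 1 animal, HE minus BE ran from -2.07 to -1.31 for LRRC43, -0.999 to -0.68 for GHRL and -1.04 to -0.40 for GSTA1. HEP minus BEP ran from -1.998 to -1.06 for OVGP1 and -0.080 to 0.38 for GHRL, and HP minus BP from -0.71 to 0.079 for OVGP1 and -0.10 to 0.29 for GSTA1. Interactions ran from -0.042 to 0.43 for LRRC43 (progesterone by haloperidol), -0.28 to 0.044 for GSTA1 (estrogen by haloperidol) and -0.17 to 0.93 for OVGP1 (all 3). The cause was not tested. Of the 3 genes most like each, 0, 0, 1 and 2 stayed for LRRC43, OVGP1, GHRL and GSTA1 when r was taken over group means, and 0 for each over deviations from them. With 4 arrays a group and values near the dim end, small differences could not be resolved.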
